A study of Mus musculus with 2 samples.

Results

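The genes described here are the 10 mouse globin and heme synthesis genes *Hba-a1*, *Hba-a2*, *Hbb-bs*, *Hbb-bt*, *Hbb-y*, *Hbb-bh1*, *Hba-x*, *Alas2*, *Fech* and *Slc25a37*. They were selected by gene symbol, and all 10 were present among the 33696 genes of the count tables of both libraries. The transcripts of 4 adult globin genes made up 3.57% of all transcripts counted in the FGF8 library and 3.1% of those in the BSA library. Most of these transcripts were in the globin-dominated barcodes, a small set with an adult globin share of at least 50%, which is partly set by that definition. They held 4090689 of the 4454799 adult globin transcripts after FGF8 and 1941181 of 2099335 after BSA. The barcodes called from red cell markers held 2026235 and 1244359. In the cells called from red cell markers, the adult globins and the 3 heme genes stood at nearly the same level after FGF8 and BSA when all transcripts were the denominator. The adult globins were 94.2% and 96.4% of that denominator, so their sum had little room to differ. Relative to the transcripts outside the 10 genes, all 7 of these genes were lower after FGF8, with log2 ratios from −0.89 to −0.64. The libraries differed in how many globin-dominated barcodes carried more than 200 detected genes and, by a small amount, in the balance of alpha to beta transcripts.

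Hemoglobin is assembled from alpha-like and beta-like globin chains, each holding a heme group. In the mouse, *Hba-a1* and *Hba-a2* encode the adult alpha chain, and *Hbb-bs* and *Hbb-bt* are the adult beta genes of the single-type beta haplotype. *Hba-x*, *Hbb-y* and *Hbb-bh1* are the embryonic globins of primitive red cells from the yolk sac. Heme is made partly in mitochondria. *Alas2* encodes the erythroid enzyme of the first and limiting step, *Slc25a37* (mitoferrin 1) carries iron into the mitochondrion, and *Fech* (ferrochelatase) inserts iron into the porphyrin ring in the last step. Mature mouse red cells have no nucleus, and reticulocytes, their direct precursors, hold a shrinking store of transcripts in which globins dominate.

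The cells came from neonatal mice of the outbred ICR strain, pooled from males and females, whose hindlimb digits 2 and 4 had been amputated through the second phalanx at postnatal day 3. An agarose bead loaded with FGF8 (500 ng/µl) or with 0.1% BSA, the control protein, was implanted at postnatal day 7, and tissue distal to the stump was collected 24 h later, at postnatal day 8, after the epithelium had been removed. Each condition was 1 single-cell library (10x 3′ chemistry) from 20 digits of 5 mice. The mouse behind a barcode is not known, so conditions were compared as 1 library against 1, without a test or a p-value.

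Transcripts were counted as UMIs (unique molecular identifiers). There were 124889213 UMIs over 7249 barcodes after FGF8 and 67739460 over 3703 after BSA, with medians of 12285 and 14835. The study's filter on genes (above 200, below 7500) and on mitochondrial transcripts (below 15%) kept 6715 and 3252 cells. Of the kept cells whose sex could be called from *Xist* and Y-linked genes, 24.6% were female after FGF8 and 79.3% after BSA. The libraries shared 6 barcodes, 1 of which was globin-dominated in the BSA library but was not called from red cell markers. Levels are given as CPM, the UMIs of a gene per 1000000 UMIs of the same cells. A 3′ library counts a transcript once whatever its length, so levels were compared between genes without scaling to length. Intervals are 95% exact intervals (Poisson for levels, Clopper-Pearson for shares, conditional for ratios) and cover counting error only.

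In the GRCm39 annotation the alpha-like members lie on the plus strand of chromosome 11 in the order *Hba-x* (chr11:32226400-32228116), *Hba-a1* (chr11:32233186-32234504) and *Hba-a2* (chr11:32246168-32247320). The beta-like members lie on the minus strand of chromosome 7, with *Hbb-bt* (chr7:103461727-103465047), *Hbb-bs* (chr7:103475730-103482989), *Hbb-bh1* (chr7:103490844-103492371) and *Hbb-y* (chr7:103500956-103502423). *Alas2* is X-linked (chrX:149330371-149353634) and *Slc25a37* is on chromosome 14 (chr14:69479297-69522561). The coding sequences of *Hba-a1* and *Hba-a2* differ at 1 of 429 bases, and their 3′ untranslated regions are identical over the 90 bases they share. Those of *Hbb-bs* and *Hbb-bt* differ at 1 of 444 coding bases but match at only 70.4% of the 3′ untranslated region. The split between *Hba-a1* and *Hba-a2* is therefore uncertain in 3′ counts, whereas the beta pair has sequence by which it can be told apart. Reads of near-identical copies may be split or dropped by the counting. Summed alpha may thus also be counted too low against beta. The reference is built on another strain than ICR, whose alleles at both clusters are not known here.

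The 130 bases upstream of the annotated start are shown for 6 members, because adult, embryonic and heme genes stood so far apart in level. They are from the RefSeq table of the earlier build GRCm38.p6, 5′ to 3′ on the gene's strand, and capitals mark, on either strand, the Krüppel-like factor box CACCC, the promoter box CCAAT, the GATA factor motif GATAA and the TATA box core TATAA. The windows are chr11:32283542-32283671 (plus) for *Hba-a1*, chr7:103827929-103828058 (minus) for *Hbb-bs*, chr7:103813924-103814053 (minus) for *Hbb-bt*, chr11:32276470-32276599 (plus) for *Hba-x*, chr7:103853208-103853337 (minus) for *Hbb-y* and chrX:150547287-150547416 (plus) for *Alas2*.
Hba-a1: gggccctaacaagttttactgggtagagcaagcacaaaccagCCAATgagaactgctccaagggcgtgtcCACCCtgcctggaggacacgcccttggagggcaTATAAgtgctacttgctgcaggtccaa
Hbb-bs: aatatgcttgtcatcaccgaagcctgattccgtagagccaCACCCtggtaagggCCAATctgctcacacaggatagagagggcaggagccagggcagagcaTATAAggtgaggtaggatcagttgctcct
Hbb-bt: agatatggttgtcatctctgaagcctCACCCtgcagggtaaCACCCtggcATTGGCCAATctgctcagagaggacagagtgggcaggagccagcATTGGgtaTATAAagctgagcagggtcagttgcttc
Hba-x: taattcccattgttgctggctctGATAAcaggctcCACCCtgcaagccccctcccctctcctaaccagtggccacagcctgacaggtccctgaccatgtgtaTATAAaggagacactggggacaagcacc
Hbb-y: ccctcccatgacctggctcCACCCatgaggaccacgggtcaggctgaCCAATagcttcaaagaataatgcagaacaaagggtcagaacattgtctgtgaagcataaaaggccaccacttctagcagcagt
Alas2: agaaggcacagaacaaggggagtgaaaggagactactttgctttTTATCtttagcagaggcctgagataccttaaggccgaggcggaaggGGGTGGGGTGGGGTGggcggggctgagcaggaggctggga

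All 6 windows held CACCC, which 33.7% of the 32851 promoter windows of the same length in the table hold on either strand. *Hbb-bt* carried 2 copies of it and *Alas2* 3, all in reverse. CCAAT, found in 22.4% of all windows, was present in the 3 adult globin windows and in *Hbb-y*. TATAA (12.7% of all windows) was present in the adult globins and *Hba-x*. GATAA (11.4%) was found in *Hba-x* and *Alas2*. The *Hba-a2* window matched that of *Hba-a1* without a mismatch after a shift of 3 bases, while *Hbb-bs* and *Hbb-bt* were 75.8% identical. These letter matches describe the windows and are not evidence of binding.

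Red cells were identified from markers other than the members. When the members were left out of the clustering features, the barcodes that carried erythroid markers fell into a mixed cluster with keratinocyte markers that could not be named. Cells were therefore called one by one from 24 red cell markers such as *Slc4a1* (band 3, the anion exchanger), *Epb42* (a membrane skeleton protein) and *Rhag* (a Rhesus complex protein). A barcode was called erythroid with at least 2 of these markers and at least 1% of its UMIs outside the members from them. This rule called 160 kept FGF8 cells and 53 kept BSA cells, all 24 markers being detected in the FGF8 cells and 19 in the BSA cells. *Ermap*, *Klf1*, *Cldn13*, *Fhdc1* and *Ypel4* were at 0 in the latter. Since the members were left out of the total behind the 1% limit, a barcode rich in globin needed fewer marker UMIs to be called. The lowest adult globin share among the marker-called barcodes was 89.8% of UMIs after FGF8 and 88.8% after BSA.

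A second, broader set was defined from the globins themselves, as the barcodes with at least 50% adult globin UMIs. Adult globin share separated the barcodes widely. It was below 0.1% in 76.2% of FGF8 and 81.6% of BSA barcodes, and from 90 to 100% in 5.31% and 4.64%. Only 51 and 9 barcodes lay between 40 and 60%. The highest share below the threshold was 49.7% (FGF8) and 49.4% (BSA), and the lowest above it 51.1% and 51.2%. These globin-dominated barcodes numbered 584 after FGF8 and 217 after BSA, of which 164 and 76 were marker-called.

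**Figure D1:**
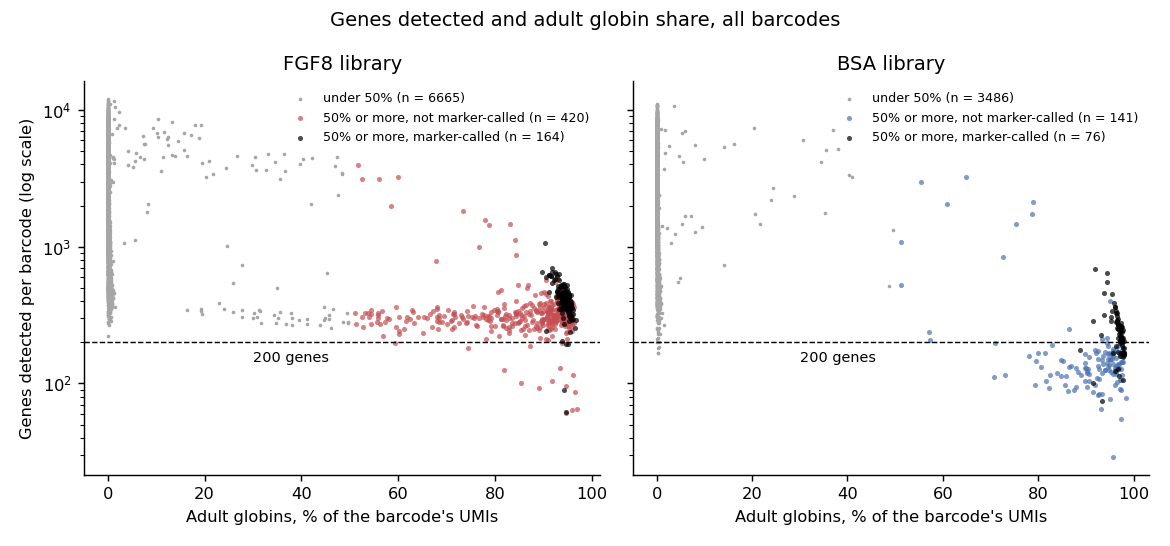
Genes detected per barcode (log scale) against the adult globin share of its UMIs, for all barcodes of the FGF8 (left) and BSA (right) library; black points are marker-called, coloured points are other globin-dominated barcodes, and the dashed line is the filter at 200 genes. Globin-dominated FGF8 barcodes sit mostly above the line (median 333 genes) and BSA ones mostly below it (median 166).

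The filter on detected genes removed globin-dominated barcodes unequally. Of the globin-dominated barcodes, 19 of 584 in the FGF8 library (3.25%, interval 1.97–5.03%) had 200 genes or fewer, against 145 of 217 in the BSA library (66.8%, 60.1–73.0%). All 19 FGF8 barcodes that this limit removed, and 145 of the 150 BSA barcodes, were globin-dominated. Before the filter, globin-dominated barcodes were 8.06% (7.44–8.71%) of the FGF8 and 5.86% (5.13–6.67%) of the BSA barcodes, with a log2 ratio of 0.46 (0.23–0.69). After it they were 8.41% and 2.21% of kept cells, a log2 ratio of 1.93 (1.57–2.30). The marker-called barcodes moved less. They were 2.26% and 2.05% of all barcodes, a log2 ratio of 0.14 with an interval that included 0 (−0.26 to 0.55), and 2.38% and 1.63% of kept cells, a log2 ratio of 0.55 (0.09–1.02).

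**Figure D2:**
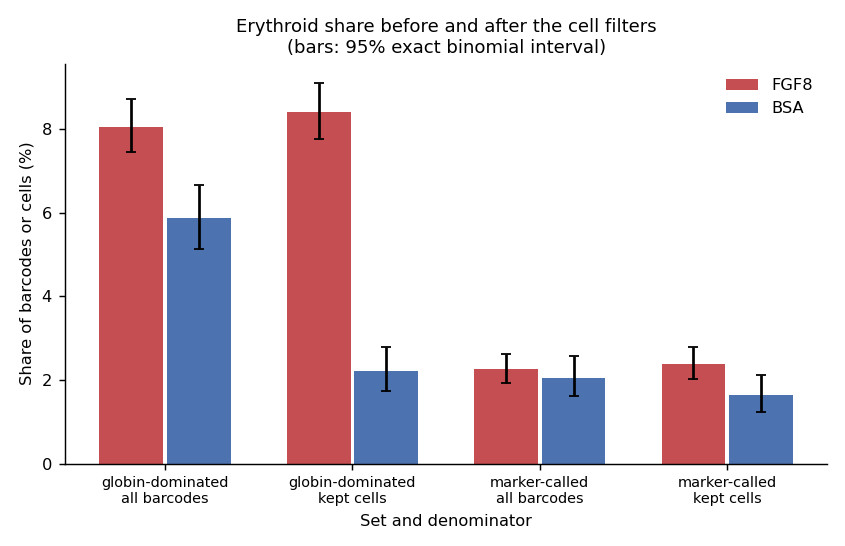
Share of barcodes (before the filter) or kept cells (after it) that were globin-dominated or marker-called, in the FGF8 and BSA libraries; error bars are 95% exact binomial intervals. The BSA share of globin-dominated barcodes falls from 5.86% to 2.21% with the filter, while the FGF8 share stays between 8.06% and 8.41%.

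The globin-dominated barcodes of the FGF8 library carried more transcripts of other genes. Most globin-dominated barcodes were not marker-called, and the 24 red cell markers had a median of 1 UMI per barcode in both libraries. The median number of UMIs outside the members was 463.5 in FGF8 and 266 in BSA globin-dominated barcodes, and 684.5 and 519 in the marker-called ones. Among globin-dominated barcodes with fewer than 2000 UMIs it was 370.5 (n = 104) against 143 (n = 51). Of these, 94.1% of the BSA barcodes but 9.62% of the FGF8 ones had 200 genes or fewer. Among those with 10000 UMIs or more it was 684 (n = 191) against 527.5 (n = 90), with 0 of 191 and 27 of 90 at or below 200 genes. Fibroblast markers such as *Col1a1* and *Dcn*, which red cells do not use, had a median of 7 UMIs per globin-dominated barcode after FGF8 and 4 after BSA, and all 8 were detected in both. Neutrophil markers went the other way, at 636 and 5050 per 1000000 UMIs outside the members, as did macrophage markers at 475 and 2781. In the BSA library 438 of the 572 neutrophil marker UMIs and 211 of the 315 macrophage marker UMIs were in 1 barcode each. The part of these transcripts in the gene counts was not tested.

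Among the members, *Hbb-bs* was the most abundant transcript of the marker-called cells, at 452840 CPM in the FGF8 and 436992 CPM in the BSA cells. *Hba-a1* followed at 356594 and 387099 CPM, *Hbb-bt* at 109007 and 112145 CPM and *Hba-a2* at 23979 and 27547 CPM. Together the 4 adult globins took 94.2% and 96.4% of all UMIs, and their order was the same in both libraries. The place of *Hbb-bs* above *Hba-a1* carries the counting limit of the alpha copies given above. In the broader set of globin-dominated barcodes *Hbb-bs* and *Hba-a1* stood at 444027 and 370950 CPM in the FGF8 library but were level in the BSA library, at 420601 and 420080 CPM. Per cell, *Hbb-bs* ranged from 1842 to 9066 UMIs in FGF8 cells (median 6050) and from 2038 to 12676 in BSA cells (median 8879). The range of *Hba-a1* was 1437 to 8587 UMIs (median 4748.5) and 1997 to 12090 (median 7813). The libraries overlapped widely in both, and the BSA cells were also deeper, with a median of 20013 UMIs against 13206.5.

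Relative to all UMIs, the log2 ratios of FGF8 over BSA for the adult globins were small. They were −0.12 (−0.12 to −0.11) for *Hba-a1*, −0.20 (−0.22 to −0.18) for *Hba-a2*, 0.05 (0.05–0.06) for *Hbb-bs* and −0.04 (−0.05 to −0.03) for *Hbb-bt*. These intervals are narrow at such counts, but they do not include variation between mice. The 4 adult globins took 94.2% and 96.4% of the UMIs, so the denominator left their summed CPM little room to differ. A ratio between −1 and 1 on this scale is therefore not a finding for that sum. Of the 10 members, 7 had at least 10 UMIs in the marker-called cells. None of the 7 had a CPM ratio above 1 or below −1 on the log2 scale, beside 54.3% of the 1666 genes with at least 10 UMIs above 1 and 1.74% below −1. The median log2 ratio was −0.03 for the members and 1.15 for all genes tested. All 7 members had over 100 UMIs, and of the 226 genes with at least 100 UMIs 90 were above 1 and 1 below −1, with a median of 0.49 (0.35–0.81). The UMIs outside the members were a larger share of the FGF8 cells by 0.69 on the log2 scale. Per 1000000 UMIs outside the members, 31.1% of genes were above 1 and 6.24% below −1, and again 0 of the 7 members. On that scale the medians were −0.72 for the members, 0.46 for the 1666 genes and −0.20 for the 226, and the 4 adult globins together had a log2 ratio of −0.72.

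**Figure D3:**
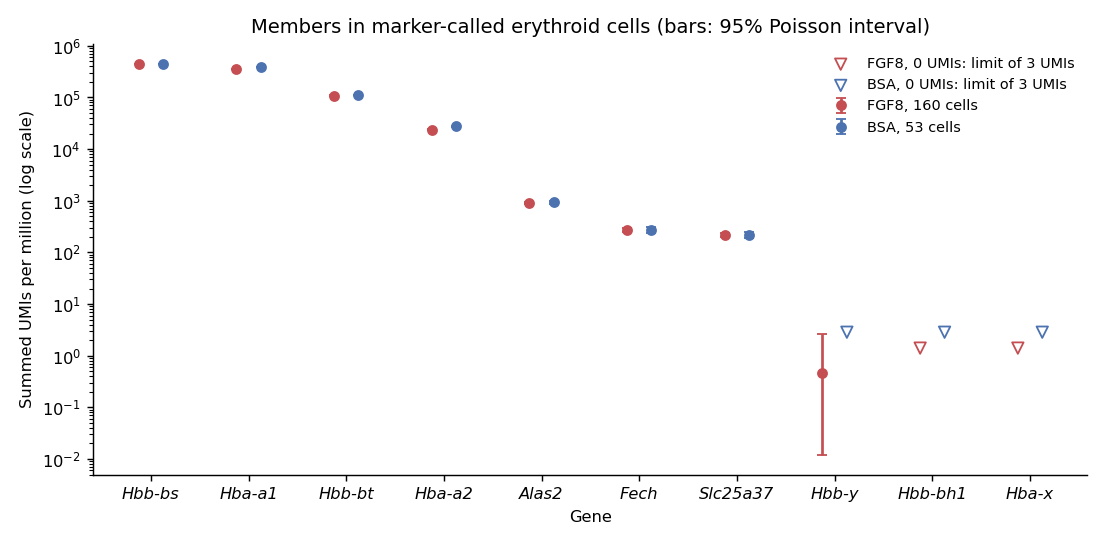
Level of each member in marker-called erythroid cells (UMIs per 1000000, log scale) in the FGF8 (160 cells) and BSA (53 cells) library; bars are 95% Poisson intervals and open triangles mark genes with 0 UMIs at the level of 3 UMIs. The 7 detected members lie at nearly equal heights in both libraries, from *Hbb-bs* at 452840 and 436992 down to *Slc25a37* at 221 and 222, and the 3 embryonic globins lie at or below the level of 3 UMIs.

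The balance of alpha to beta transcripts leaned further to beta in the FGF8 library. Alpha transcripts were 40.4% of adult globin UMIs in FGF8 marker-called cells and 43.0% in BSA ones, log2 alpha over beta of −0.56 and −0.41. The difference of −0.16 (−0.16 to −0.15) exceeded counting error. The alpha shares themselves may be too low if reads of the alpha copies were dropped, which was not tested. Per cell the alpha share ran from 32.0 to 47.3% (median 40.4%) in FGF8 and from 33.8 to 48.6% (median 43.1%) in BSA cells, so the groups overlapped over most of their range. In the broader set of all globin-dominated barcodes the difference was −0.25 (−0.25 to −0.24).

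Alpha share varied strongly with the amount of RNA in a barcode. Bins of total UMIs, chosen after the data had been seen, showed alpha shares of 59.0% (FGF8) and 61.3% (BSA) under 2000 UMIs. From 2000 to 10000 UMIs they were 44.1% and 56.6%, and from 10000 UMIs 40.6% and 43.6%. The FGF8 value was lower in all 3 bins. Barcodes with more than 60% alpha numbered 76 of 584 in FGF8 (13.0%) and 53 of 217 in BSA (24.4%), and none of them had 10000 UMIs or more. Single barcodes reached 97.6% and 97.5% alpha.

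The minor beta gene *Hbb-bt* took a larger share in deeper barcodes. Its share of beta transcripts, summed over globin-dominated barcodes, was 15.9% (FGF8) and 16.5% (BSA). It was 4.63% and 10.8% under 2000 UMIs, 11.1% and 7.54% from 2000 to 10000 UMIs, and 19.1% and 18.3% above, so the library with the higher share changed between bins and the BSA sum did not rise steadily. The medians per barcode were 2.20% and 2.67%, 8.62% and 4.01%, and 18.7% and 16.7% in the same bins. In marker-called barcodes the median share was 18.7% in FGF8 (164 barcodes, 11.6–28.1%) and 18.3% in BSA (76 barcodes, 3.51–35.2%). In the other globin-dominated barcodes it was 6.84% (420 barcodes) and 4.52% (141 barcodes). A share under 5% was seen in 0 of the 164 and 174 of the 420 FGF8 barcodes, and in 3 of the 76 and 77 of the 141 BSA barcodes. *Hba-a2* behaved likewise, with medians of 5.65% and 4.89% of alpha transcripts in marker-called barcodes and 2.28% and 1.87% in the others.

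Across the 584 FGF8 and 217 BSA globin-dominated barcodes, the *Hbb-bt* share of beta and the *Hba-a2* share of alpha rose together, with Spearman's rho of 0.82 and 0.84. The *Hbb-bt* share had a rho of 0.83 and 0.58 with total UMIs, and of 0.74 and 0.64 with the erythroid marker share of the UMIs outside the members. Alpha share had a rho of −0.62 and −0.74 with *Hbb-bt* share. These are descriptions across barcodes of the same library, which share reagents and depth and are not replicates. Fewer UMIs also make the share of a minor transcript noisier.

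**Figure D4:**
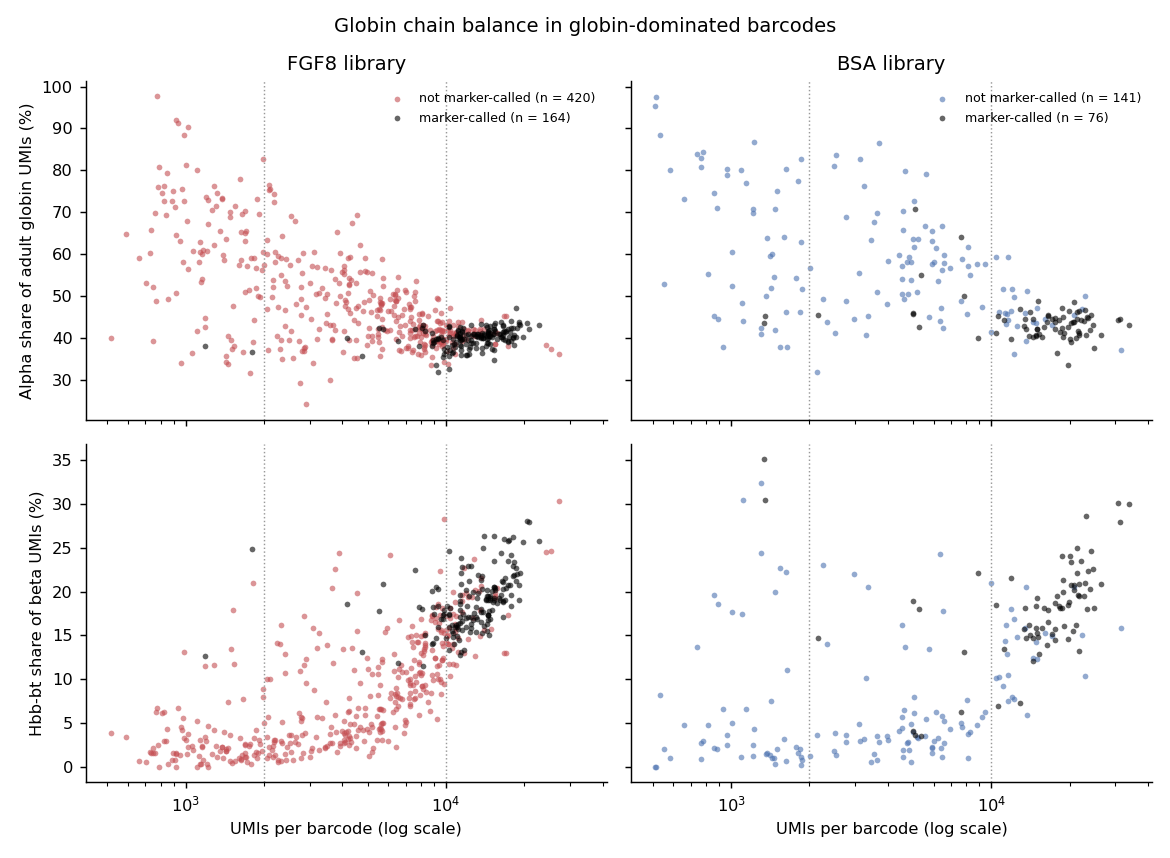
Alpha share of adult globin UMIs (top) and *Hbb-bt* share of beta UMIs (bottom) against UMIs per barcode (log scale) for globin-dominated barcodes of the FGF8 (left, 584) and BSA (right, 217) library; black points are marker-called and dotted lines mark 2000 and 10000 UMIs. Barcodes with 10000 UMIs or more gather around summed alpha shares of 40.6% and 43.6% and *Hbb-bt* shares of 19.1% and 18.3%, while those with fewer UMIs spread up to 97.6% alpha.

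The embryonic globins were nearly absent. *Hbb-y* had 2 UMIs in 2 barcodes of the FGF8 library, 0.449 per 1000000 adult globin UMIs (interval 0.0544–1.62), and 0 in the BSA library. Taking 3 UMIs as the limit that a count of 0 allows, up to 1.43 per 1000000 could have been present there. *Hbb-bh1* and *Hba-x* had 0 UMIs in both libraries, which by the same limit of 3 UMIs allows up to 0.673 per 1000000 adult globin UMIs after FGF8 and 1.43 after BSA. No ratio is given, since both libraries were at or under the level of 3 UMIs. The globin transcripts of both conditions were thus almost entirely those of the adult genes.

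*Alas2* was the most abundant heme gene, with 1947 UMIs (912 CPM, 872–953) in FGF8 and 978 UMIs (930 CPM, 872–990) in BSA marker-called cells. It was detected in all 160 and all 53 cells, with 2 to 29 UMIs per FGF8 cell (median 11) and 1 to 37 per BSA cell (median 18). After thinning to 1000 UMIs per cell it was found in 58.8% and 54.7% of cells. Its log2 ratio was −0.03 (−0.14 to 0.08). *Alas2* is X-linked and the pools differed in their share of female cells, but only 13 FGF8 and 3 BSA marker-called cells could be sexed, so levels within a sex were not given.

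*Fech* stood at 269 CPM (247–292) and 273 CPM (242–306), in 90.6% and 96.2% of cells, with a log2 ratio of −0.02 (−0.23 to 0.19). *Slc25a37* stood at 221 CPM (202–242) and 222 CPM (194–252), in 86.9% and 90.6% of cells, with a log2 ratio of 0.00 (−0.23 to 0.23). The order *Alas2*, *Fech*, *Slc25a37* was the same in both libraries. The intervals of *Fech* and *Slc25a37* did not overlap in the FGF8 library and overlapped in the BSA library. At these counts a change inside those ratio intervals was not detectable.

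In marker-called cells the heme genes stood in nearly the same proportion to the globins in both libraries. For 1000 adult globin UMIs there were 0.967 *Alas2* UMIs in FGF8 and 0.965 in BSA marker-called cells, 0.285 and 0.283 of *Fech*, and 0.235 and 0.230 of *Slc25a37*. Per 1000000 UMIs outside the members the same genes were lower in the FGF8 cells, at 16228 and 26721 for *Alas2*, 4784 and 7842 for *Fech* and 3942 and 6366 for *Slc25a37*. The log2 ratios on that scale were −0.72, −0.71 and −0.69. The direction for the heme genes thus rests on the denominator, and on this scale fibroblast markers stood at 11044 per 1000000 in FGF8 and 6967 in BSA cells. Their part in the denominator was not tested.

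Adding the less RNA-rich barcodes changed little for *Alas2*. In all globin-dominated barcodes it was at 869 and 923 CPM and found in 79.5% and 78.3% of barcodes, with a log2 ratio of −0.09 (−0.17 to −0.01). *Fech* was at 200.3 and 209.5 CPM and *Slc25a37* at 176 and 203 CPM, with log2 ratios of −0.065 (−0.23 to 0.10) and −0.20 (−0.38 to −0.03). In the kept globin-dominated barcodes the ratios were −0.34 (−0.52 to −0.15) for *Fech* and −0.39 (−0.59 to −0.20) for *Slc25a37*, and per adult globin UMI −0.31 (−0.50 to −0.12) and −0.37 (−0.56 to −0.17), so that both genes were lower in the FGF8 library in that set. *Alas2* was at −0.04 (−0.14 to 0.05) there. Over all globin-dominated barcodes both were below their levels in marker-called cells. Within marker-called cells, those with more than 500 other genes had 0.363 (FGF8, 26 cells) and 0.323 (BSA, 3 cells) *Fech* UMIs per 1000 adult globin UMIs, against 0.266 (134 cells) and 0.280 (50 cells) with up to 500. *Slc25a37* was at 0.281 and 0.311 against 0.223 and 0.223, whereas *Alas2* was at 0.906 and 1.01 against 0.983 and 0.961. No marker-called cell had more than 1500 other genes.

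Most other genes of heme synthesis were scarce in the same cells. Of the 7 other enzymes, 3 reached 10 UMIs and 1 of these had a log2 CPM ratio above 1, beside 54.3% of all genes tested. *Urod* had 52 and 24 UMIs in FGF8 and BSA cells, a log2 ratio of 0.09 (−0.63 to 0.86), and *Alad* had 21 and 7, a log2 ratio of 0.56 (−0.72 to 2.04). *Alas1*, the form of the first enzyme used by other tissues, had 1 and 0 UMIs. On the scale of UMIs outside the members it was at 8.33 and 0, beside 36.3 and 33.8 in the other cells. Counts of 1 and 0 UMIs are too few to show whether its level was lower in the marker-called cells. Of 10 other mitochondrial and heme transporters, 2 reached 10 UMIs, none beyond a log2 ratio of 1 in either direction. *Slc48a1*, which carries heme out of lysosomes, had 170 and 70 UMIs, a log2 ratio of 0.26 (−0.15 to 0.68). *Abcb10*, a partner of mitoferrin, had 1 and 0.

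Iron storage transcripts had high counts in these cells and iron uptake transcripts had low ones. Of 11 iron genes, 4 reached 10 UMIs and 1 had a log2 CPM ratio above 1, beside 54.3% of all genes tested, *Pcbp1* with 15 and 1 UMIs (log2 ratio 2.89, 0.18–8.28). The ferritin chains *Ftl1* and *Fth1* had 3689 and 1516, and 2942 and 1042 UMIs, with log2 ratios of 0.26 (0.17–0.35) and 0.48 (0.37–0.58), beside a median of 0.49 over the 226 genes with at least 100 UMIs. The ferritin receptor of autophagy, *Ncoa4*, had 93 and 53 UMIs (log2 ratio −0.21, −0.71 to 0.30). *Tfrc*, the transferrin receptor of growing erythroblasts, had 2 UMIs in each library. In the list of heme breakdown and hemoglobin clearance, 1 of 7 genes reached 10 UMIs, *Blvrb* (biliverdin reductase B) with 502 and 255 (log2 ratio −0.04, −0.26 to 0.18). *Hmox1* had 2 and 0.

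Genes of late red cells were abundant and close to the members in their ratio. Of 15 such genes 12 reached 10 UMIs, with a median log2 CPM ratio of 0.07, and only *Tspo2* (22 and 4 UMIs, 1.44, −0.12 to 3.43) and *Hemgn* (9 and 1 UMIs, 2.15, −0.70 to 7.60) were above 1, both with intervals that included 0, beside 54.3% of all genes tested. *Gpx1*, a peroxide-removing enzyme, had 3217 and 1580 UMIs (0.00, −0.08 to 0.09), *Ube2l6* had 171 and 106 (−0.33, −0.69 to 0.03) and *Trim10* had 89 and 28 (0.65, 0.02–1.31). *Bpgm*, which makes the regulator of oxygen affinity, was at 640 and 622 CPM. Of 14 membrane and skeleton genes 9 reached 10 UMIs, with a median of −0.22 and only *Rhd* (11 and 15 UMIs) below −1, beside 1.74% of all genes tested. *Slc4a1* had 75 and 43 UMIs (−0.22, −0.78 to 0.36) and *Epb41* had 299 and 173 (−0.23, −0.51 to 0.05). Many of these genes were among the markers that called the cells, so their presence is not a finding.

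Of 10 genes for erythroid transcription factors and the erythropoietin receptor only *Lmo2* reached 10 UMIs, with 27 and 28, and it was below −1 at −1.07 (−1.89 to −0.26). *Gata1* had 2 and 1 UMIs, *Klf1* 2 and 0, and *Epor* 0 in both. On the scale per 1000000 UMIs outside the members, the medians of the membrane and late red cell lists were −0.91 and −0.62, beside 0.46 for all genes.

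Over 20 points, which are the clusters and marker-called cells of both libraries, log2(CPM + 1) of the summed adult globins was followed closely by *Tent5c* (Pearson's r 0.87), *Bnip3l* (0.85), *F930017D23Rik* (0.79) and *Bpgm* (0.76) among 226 genes outside the members. Further genes were *Mkrn1* (0.75), *Epb41* (0.73), *Cd24a* (0.71), *Slc4a1* (0.71) and *Isg20* (0.70). Among the members *Alas2* had an r of 0.99, *Slc25a37* 0.94 and *Fech* 0.38. The points share libraries and a low globin count in every cluster, and the values are descriptions. *Bpgm* and *Slc4a1* were among the markers that called the marker-called cells, so their r is partly set by that call.

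Adult globin transcripts were found at a low level in nearly all other cells. In the 8 clusters named from markers (5599 FGF8 and 2846 BSA cells outside the marker-called set), at least 1 adult globin UMI was found in 95.3% and 90.2% of cells, with a median of 3 and 2 UMIs per cell. By cluster the median ran from 1 to 4 UMIs after FGF8 and from 2 to 3 after BSA, although median depth ran from 2407 to 21109.5 and from 3214 to 23531 UMIs. Medians of so few UMIs cannot show how closely the globin count of a cell followed its depth, which was not tested. Against these low medians, the 5% of cells with the most globin held 95.1% and 97.1% of all globin UMIs of these clusters, with up to 15219 and 23259 in a cell.

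Which library had the higher background depended on these few cells. Summed over all cells of the named clusters, adult globins were at 3761 CPM in the FGF8 and 4481 CPM in the BSA library, a log2 ratio of −0.25 (−0.26 to −0.25). Without the globin-dominated barcodes the ratio was 0.06 (0.06–0.07), and among the 5533 and 2803 cells with under 1% globin it was 0.46 (0.42–0.49), at 220 and 160 CPM. In these last cells alpha transcripts were 39.1% and 41.1% of globin and *Hbb-bt* 13.4% and 13.0% of beta. *Hba-a2* was 12.9% and 11.4% of alpha transcripts there, against 4.52% and 4.55% in globin-dominated barcodes. The embryonic globins had 0 UMIs in the other cells of both libraries.

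*Alas2* was rare outside red cells, whereas *Fech* and *Slc25a37* were not. In cells with under 1% globin, *Alas2* had 40 and 27 UMIs (0.430 and 0.540 CPM) and was found in 0.723% and 0.963% of cells. *Fech* was at 26.8 and 32.5 CPM and *Slc25a37* at 17.0 and 11.7 CPM. Both differed between clusters beyond counting error.

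At the resolution used here *Fech* was highest in mast-like cells, at 83.6 CPM (54.1–123, 57 cells) in FGF8 and 142 CPM (104–189, 38 cells) in BSA. It was lowest in chondrocyte-like cells in the FGF8 library, at 7.96 CPM (5.15–11.8), and in neutrophil-like cells in the BSA library, at 8.60 CPM (2.79–20.1). In the finer clustering (resolution 0.2, all cells of a cluster) a larger mast-like cluster of 151 and 93 cells had *Fech* at 34.1 CPM (23.2–48.4) and 65.6 CPM (48.9–86.3). In the FGF8 library that was no longer the highest level outside red cells, as an unnamed cluster led by *Lars2* stood at 53.9 CPM (44.3–64.9). The chondrocyte-like and neutrophil-like clusters overlapped in their intervals in both libraries. Thinned to 1000 UMIs, *Fech* was found in 7.69% and 18.4% of mast-like cells and in 3.03% and 4.17% of fibroblast-like cells. Among the named clusters at the main resolution, *Slc25a37* was highest in neutrophil-like cells, at 42.2 CPM (32.8–53.4, 532 cells) and 36.1 CPM (22.4–55.2, 155 cells). Macrophage-like cells followed at 22.3 CPM (19.5–25.4) and 23.5 CPM (19.7–27.8), an overlap with neutrophil-like cells in the BSA library only. Smooth muscle or pericyte-like and mast-like cells were lowest in both libraries, at 6.04 to 7.66 CPM, with overlapping intervals.

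**Figure D5:**
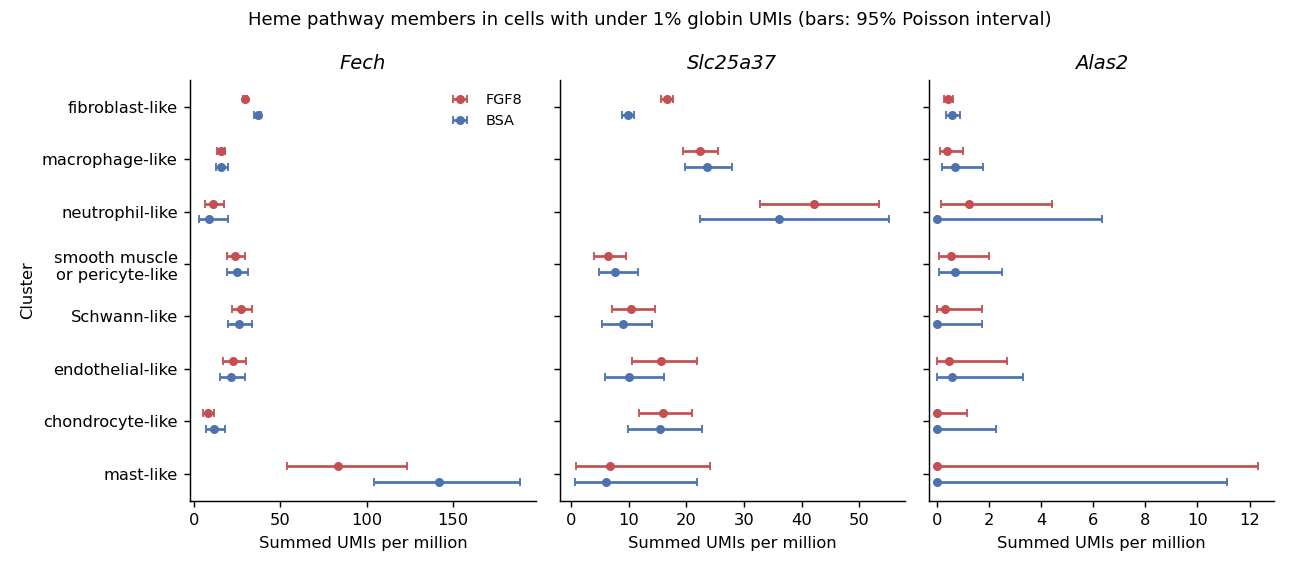
Levels of *Fech*, *Slc25a37* and *Alas2* (UMIs per 1000000) by cluster in cells with under 1% globin UMIs of the FGF8 and BSA libraries; bars are 95% Poisson intervals. *Fech* stands out in mast-like cells (83.6 and 142), *Slc25a37* in neutrophil-like cells (42.2 and 36.1), and *Alas2* reaches at most 1.22.

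Between the libraries, fibroblast-like cells with under 1% globin (3257 and 1650) had the counts for a close comparison. *Slc25a37* was at 16.6 CPM (15.7–17.6) in FGF8 and 9.78 CPM (8.77–10.9) in BSA cells, a log2 ratio of 0.76 (0.59–0.94). In the finer clustering, the cluster led by *Prg4* (1585 and 613 cells) had *Slc25a37* at 20.1 CPM (18.9–21.5) and 10.8 CPM (9.32–12.5). Another, led by *Chodl*, held 1335 and 912 cells with 9.69 CPM (8.40–11.1) and 8.84 CPM (7.51–10.3), where the intervals overlapped. These clusters also took different shares of the libraries, and the part of that in the pooled ratio was not tested. *Fech* was at 29.7 CPM (28.4–31.0) and 37.1 CPM (35.1–39.1), a log2 ratio of −0.32 (−0.42 to −0.22). Neither was beyond 1 or −1, and the same held for all 7 members with at least 10 UMIs there, beside 6.68% of 20025 genes above 1 and 5% below −1. The median over those genes was −0.07. In mast-like cells the log2 ratio of *Fech* was −0.76 (−1.52 to −0.03), from 25 and 47 UMIs. In the other named clusters the intervals of both genes included 0.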

How the data were processed

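Each library was deposited by the authors as raw UMI counts per gene and barcode, made with Cell Ranger 9.0.0 on GRCm39; counts are whole molecules without normalization. Cells were filtered as in the study's methods and clustered with the members left out of the features (R 4.3.3, Seurat 5.3.0, sctransform 0.4.2, 30 principal components, resolution 0.05). The erythroid cells could not be named as a cluster, so the rule per cell, planned as an alternative, gave the reported values. *Ahsp*, a red cell marker, was not used here. Counts were summed per library and cell set with pandas 2.3.3, numpy 2.4.6 and scipy 1.17.1 under Python 3.11.15, and sequences were aligned with Biopython 1.88. With 1 library per condition no test was run. Shares of cells were also computed after thinning to 1000 UMIs. Doublets were marked with Scrublet (scanpy 1.11.5) and left in. Scripts were tested on simulated data.

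The members and gene lists were chosen with earlier results of these data known. Named list genes were the 2 highest and 2 lowest ratios per list where a gene had 100 UMIs or more, together with the 10 genes most like the adult globins. Other list genes were named after their values were seen, as were the 50% globin threshold, the 1% limit and the UMI bins chosen. Some genes that this rule names are not reported here.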

Additional observations from a re-analysis of the deposited data

How the results depend on the processing

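All values here are log2 ratios of FGF8 over BSA unless stated. Of the results that answer a comparison, 12 alternatives kept the value within its counting interval, 29 moved it and 9 reversed its sign. For single members these numbers were 51, 46 and 3. Some of the kept values could not have changed. Without the mitochondrial filter the erythroid cells were still 160 and 53, and Scrublet marked 0 of them in either library. Levels within the erythroid cells were therefore the same in these 2 settings, which say nothing about stability. With all variable features, at resolution 0.2 and without integration, the erythroid set was the cluster named erythroid-like, not the marker-called cells. It held 613 FGF8 and 83 BSA cells with all variable features and 442 and 62 in the other settings, against 160 and 53. The cells counted as other cells changed too. These settings thus also carry a change of cell set, and the part of each in the shifts was not tested. The erythroid share (0.55) was 2.33 under the stricter filter, 1.84 with all variable features, 1.79 at resolution 0.2, 1.79 without integration and 1.93 for globin-dominated kept cells. The adult globin level (−0.03) was −0.012, 0.083, −0.042 and −0.038 under the first 4 of these settings, −0.72 per 1000000 UMIs outside the members, and −0.042 and −0.027 for all and kept globin-dominated barcodes. The adult globin share (−2.14 percentage points) was −0.782, 4.95, −2.78 and −2.48 points. The alpha to beta balance (−0.16) was −0.15, −0.037, −0.072 and −0.076, and −0.25 and −0.058 for all and kept globin-dominated barcodes. The heme genes relative to other RNA (−0.71) were −0.30, 0.52, −0.94 and −0.84, and −0.49 for kept globin-dominated barcodes. The globin background in other cells (−0.25) was 0.37, 0.23, −0.48 and 0.36, and 1.20 without the mitochondrial filter. It was 0.065 without globin-dominated barcodes, 0.46 under 1% globin, −0.20 without cells with 2 erythroid markers, −0.12 without Scrublet-marked cells and −0.32 after thinning. The median of the pathway lists (0.09) was −0.60 per 1000000 UMIs outside the members. Among single members, *Hba-a1* reached 0.088 with all variable features, *Hbb-bs* −0.64 per 1000000 UMIs outside the members and *Hbb-bt* 0.021 in all globin-dominated barcodes. At resolution 0.2 *Fech* and *Slc25a37* in the erythroid-like cluster were at −0.34 and −0.31, and without integration at −0.35 and −0.37. The stricter filter left 29 FGF8 and 3 BSA erythroid cells. Globin-dominated sets were added after seeing the data. No paired analysis was possible because each condition had 1 library. Leaving out a replicate was not possible for the same reason. Differences between mice could not be measured.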

Other observations

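Among the other globin family genes, the theta globins *Hbq1a* and *Hbq1b* were found in the marker-called red cells, with 73 and 26 UMIs and 51 and 33 UMIs in the FGF8 and BSA libraries. In the other cells they stood at 0.222 and 0.177 CPM and at 0.0846 and 0.138 CPM. Cytoglobin (*Cygb*), a globin of fibroblasts and related cells, had the opposite pattern, with 3 and 0 UMIs in the red cells and 56.3 and 62.8 CPM in the other cells.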
